A study of Homo sapiens with 14 samples.

Results

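ETS1 and FLI1 lie next to each other on the long arm of chromosome 11, head to head, with their starts facing one another across 99.0 kb. The interval described here ran from 50 kb past the 3′ end of ETS1 to 50 kb past the 3′ end of FLI1 (hg38, chr11:128408761-128863267, 454.5 kb). ETS1 (ENSG00000134954.14, chr11:128458761-128587558, minus strand) spans 128.8 kb and FLI1 (ENSG00000151702.18, chr11:128686535-128813267, plus strand) spans 126.7 kb. They are 2 of 19962 protein-coding genes on the 22 autosomes and X in GENCODE release 44. The interval held 14 of the 55109 FLI1 regions of the series, counted after merging those of the 4 FLI1 libraries that share at least 1 base.

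The samples are 14 CUT&RUN libraries made without treatment from TC-32, an established cell line of Ewing sarcoma in which EWSR1 is fused to FLI1. The series was designed to relate the binding of the fusion to activating and repressive histone marks. In CUT&RUN, an antibody directs a nuclease to its target and the DNA released there is sequenced. The labels name sets A and B, without saying how they differ, with 2 replicates of each antibody in a set: FLI1 in both sets, H3K27ac (a mark of active enhancers and promoters) in set A, and H3K9me3 and H3K27me3 (marks of repressed chromatin) in set B. Each set has 2 IgG control libraries, 4 in all, and the deposited peak lists, 1 for each of the other 10 libraries, are already relative to IgG. Every library, controls included, comes from the same unmodified cells, labelled WT, so no group lacks the fusion. Nothing in the labels says that replicates came from separate cultures, so the spread between them may be technical.

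ETS1 and FLI1 encode transcription factors of the ETS family, whose DNA-binding domain reads a GGAA core. In Ewing sarcoma a translocation joins the first part of EWSR1 to the last part of FLI1, including its ETS domain, and the fusion protein also binds tandem GGAA repeats. H3K27me3 is laid down by Polycomb repressive complex 2 and often spreads over the starts of developmental genes that a cell type keeps silent. Because the FLI1 antibody can recognise FLI1 sequence in both the fusion and the intact protein, the 2 cannot be told apart in these libraries. Nor can the intact and the rearranged copies of FLI1, and the break point in TC-32 is not given in the sources used here.

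The sequences that follow are those to which the results refer. The first lies upstream of the internal start of ETS1, which had FLI1 and no H3K27me3, and the others are windows of 101 bases around FLI1 summits. All are hg38, plus strand, 5′ to 3′, with GGAA and its reverse complement TTCC in capitals.
Upstream of the internal ETS1 start, chr11:128522311-128522610: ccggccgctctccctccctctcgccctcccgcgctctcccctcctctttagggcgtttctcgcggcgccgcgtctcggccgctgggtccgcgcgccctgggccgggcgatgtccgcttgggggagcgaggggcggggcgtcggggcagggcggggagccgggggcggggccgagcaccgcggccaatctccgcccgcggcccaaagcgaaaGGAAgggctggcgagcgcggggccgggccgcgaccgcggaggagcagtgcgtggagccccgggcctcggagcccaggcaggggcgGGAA
Between the genes, summit of set A replicate 1, chr11:128681325-128681425: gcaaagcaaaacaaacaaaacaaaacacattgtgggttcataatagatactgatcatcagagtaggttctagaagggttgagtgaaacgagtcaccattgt
FLI1 intron 1, summit of set A replicate 1, chr11:128705859-128705959: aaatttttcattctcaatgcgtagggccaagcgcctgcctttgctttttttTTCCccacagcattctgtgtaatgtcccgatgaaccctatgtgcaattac
FLI1 intron 1, summit of set B replicate 2, chr11:128705745-128705845: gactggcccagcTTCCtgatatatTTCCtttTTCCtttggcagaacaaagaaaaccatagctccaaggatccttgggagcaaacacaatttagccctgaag
FLI1 intron 5, summit of set A replicate 1, chr11:128790118-128790218: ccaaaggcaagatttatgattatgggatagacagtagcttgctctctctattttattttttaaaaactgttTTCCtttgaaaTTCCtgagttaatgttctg
FLI1 intron 5, summit of set B replicate 2, chr11:128790450-128790550: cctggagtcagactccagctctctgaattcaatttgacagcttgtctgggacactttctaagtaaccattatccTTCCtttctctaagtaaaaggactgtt

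The sequence upstream of the internal ETS1 start is a CpG island in composition, with 79.3% GC and 45 CpG in 300 bases, and contains 2 GGAA cores. It also holds all of MIR6090 (chr11:128522390-128522449, plus strand), a microRNA gene antisense to ETS1. Its mature product in RefSeq (GRCh38.p14) is shown with its seed, bases 2 to 8, in capitals.
hsa-miR-6090: gGGGAGCGaggggcggggc

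H3K27me3 was found along the facing ends of the 2 genes and in the stretch between them, and in neither replicate in the last introns of either gene. Replicate 1 had 22 regions in the interval, covering 53.7 kb or 11.8% of it, and replicate 2 had 18, covering 37.2 kb or 8.18%. Bases in both lists, called shared from here on, formed 15 regions of 31.5 kb, or 6.94% of the interval against 0.940% of the autosomes and X. The share of bases in either list that lay in both was 0.532 here and 0.516 genome-wide, so the 2 replicates overlapped here about as much as elsewhere. With 1 interval and 2 libraries, these shares are a description without a test. Bases of either replicate came to 13.0% of the interval, a flank of 200 kb brought the shared share to 4.26%, and requiring a −log10 q of at least 5 in both lists left 0%.

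**Figure D1:**
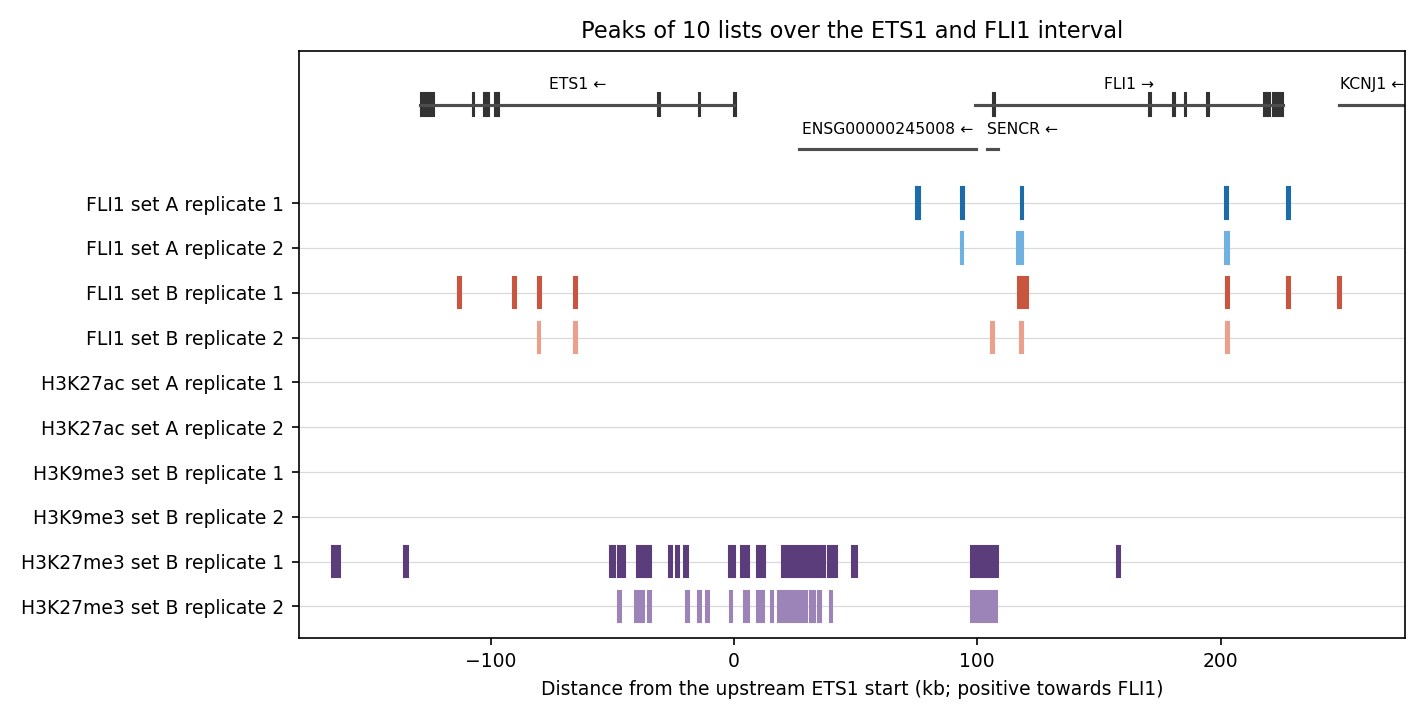
Peaks of the 10 lists over the ETS1 and FLI1 interval, 1 row per library, against the distance in kb from the upstream ETS1 start; dark bars on the genes are exons, and exons and peaks narrower than about 1 kb are drawn wider so that they can be seen. H3K27me3 lies between the middle of ETS1 and the first intron of FLI1, but for 3 regions of replicate 1 past ETS1 and 1 further into FLI1, FLI1 regions over ETS1 are in the 2 set B libraries, and the H3K27ac and H3K9me3 rows are empty.

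Most of the shared mark lay between the genes. There H3K27me3 covered 26.6% of bases in replicate 1 and 20.3% in replicate 2, with 16.7% (16.5 kb in 10 regions) shared. Over the ETS1 body the values were 11.1%, 5.996% and 4.36% (5.62 kb in 5 regions), and over the FLI1 body 8.002%, 7.39% and 7.39% (9.36 kb in 1 region). The replicates thus differed by more than the shared share over ETS1 and by under 1 percentage point over FLI1. In the 50 kb past ETS1, replicate 1 had 3 regions (5.76%) and replicate 2 had 0, and in the 50 kb past FLI1 both had 0.

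**Figure D2:**
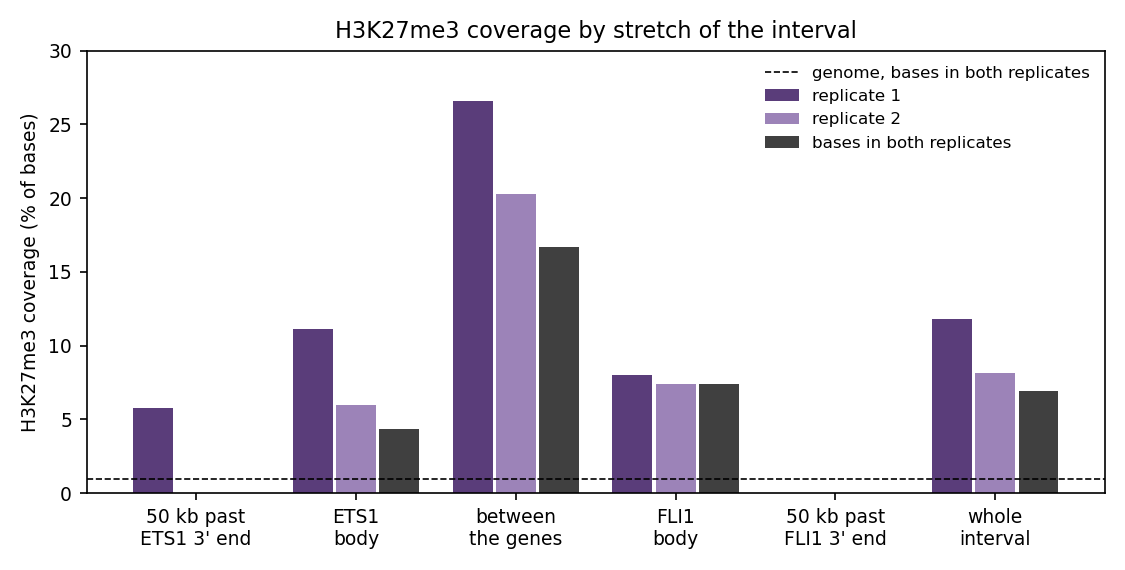
Percent of bases covered by H3K27me3 in each stretch of the interval, for replicate 1, replicate 2 and bases in both, with the genome-wide share of bases in both (0.940%) as a dashed line. The stretch between the genes has the tallest bars in every series, 26.6%, 20.3% and 16.7%, and the 50 kb past FLI1 has none.

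Set against other protein-coding genes, both members carried more of the mark than most. Of the 19962 genes, 2662 (13.3%) had any shared H3K27me3 in the body. The covered share of ETS1 was above that of 92.8% of genes and that of FLI1 above 93.9%. Long genes have more room for a region, and among the 6776 genes of at least 50 kb, 19.5% had any. In that group ETS1 stood above 94.9% and FLI1 above 96.7%. The median gene of the group had 0%, so these ranks largely reflect having any of the mark. Ranks among marked genes alone were not made.

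Joined over gaps of up to 10 kb, the shared regions formed 4 stretches. The longest, chr11:128585827-128628047, began just inside ETS1 and ran 42.2 kb towards FLI1, with 38.4% of its bases covered, and ranked 217 by length among 5991 such stretches in the genome. The stretch over the FLI1 starts, chr11:128685143-128695896, was 1 unbroken region of 10.8 kb, and as a single shared region it ranked 256 by width of 14402. The other stretches lay inside ETS1, at chr11:128540116-128553143 (13.0 kb, 31.2% covered) and chr11:128568169-128568638 (0.47 kb). Between the long stretch and the FLI1 starts, 57.1 kb held no shared region. On the far side of the FLI1 starts, the next shared region was 1696 kb away, and on the ETS1 side 215 kb without one began in intron 3 and took in all of the gene 3′ of that point.

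By intron of the representative transcripts, the shared mark inside the genes lay in the first 3 introns of ETS1-202, in the first exon and intron of FLI1-205 and in the part of FLI1 upstream of that exon. ETS1 intron 1 held 1.08 kb (7.51% of it), intron 2 0.47 kb (2.83%) and intron 3, which is 65.7 kb long, 4.07 kb (6.19%). ETS1 introns 4 to 9 held 0 kb in each replicate. FLI1 intron 1 held 1.62 kb shared (2.54%), in the end next to the start, and introns 2 to 8 held 0 kb in each replicate. Replicate 1 had 1 more region in FLI1 intron 1, at chr11:128745252-128745710.

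The deposited fold of a region is its signal over IgG as the authors' peak caller gave it, and the q-value is that caller's adjusted p. Folds of H3K27me3 regions of the interval ranged from 4.14 to 6.05 (median 4.90) in replicate 1 and from 4.29 to 6.01 (median 5.02) in replicate 2. The median −log10 q was 3.37 and 3.55, and 3 and 2 regions reached 5. The FLI1 start region was the most significant of the interval in replicate 1, with a fold of 5.76 and a −log10 q of 5.71 over 11.1 kb, and had 5.44 and 4.86 over 10.8 kb in replicate 2. The widest region of replicate 1, chr11:128607156-128623220 (16.1 kb, fold 5.84), was split into several narrower ones in replicate 2, the widest of them 6.56 kb.

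The 2 main starts of ETS1 differed in both H3K27me3 and FLI1. The upstream start, from which ETS1-202 runs (128587558), had 1479 bp of H3K27me3 within 1 kb in replicate 1 and 381 bp in replicate 2. Replicate 1 had a region across it (chr11:128585569-128588001, fold 5.10), whereas the region of replicate 2 (chr11:128585827-128586903, fold 4.49) ended 0.654 kb inside the gene. No FLI1 library had a region there. The internal start, in intron 3 of ETS1-202, begins the 4 shorter coding transcripts ETS1-201, ETS1-204, ETS1-207 and ETS1-208 (128522201 to 128522310). It had 0 bp of H3K27me3 in both replicates, with the nearest shared base 17.8 kb away, and a FLI1 region in both set B libraries. The coding start of ETS1-209, at 128505394, had neither within 1 kb, and the nearest set B summits were 2.2 and 2.04 kb from it.

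All 3 groups of coding starts of FLI1 lay inside H3K27me3. The windows of 1 kb either side of the FLI1-202 start (128686535) and of the FLI1-204 start (128692982) were covered in full, 2001 of 2001 bp in each replicate. The window of the FLI1-205 group (128693916 to 128694092) was also covered in full, with 2177 bp. SENCR, a long noncoding RNA antisense to the first part of FLI1 and described in vascular cells, lay 97.1% inside the shared mark. The start of ENSG00000245008 (128686922), a long noncoding RNA gene that begins just inside FLI1 and runs towards ETS1, was covered in full as well. Across the genome, 1870 genes, or 9.37%, had shared H3K27me3 within 1 kb of the gene start, so ETS1 and FLI1 were both in a minority of genes.

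**Figure D3:**
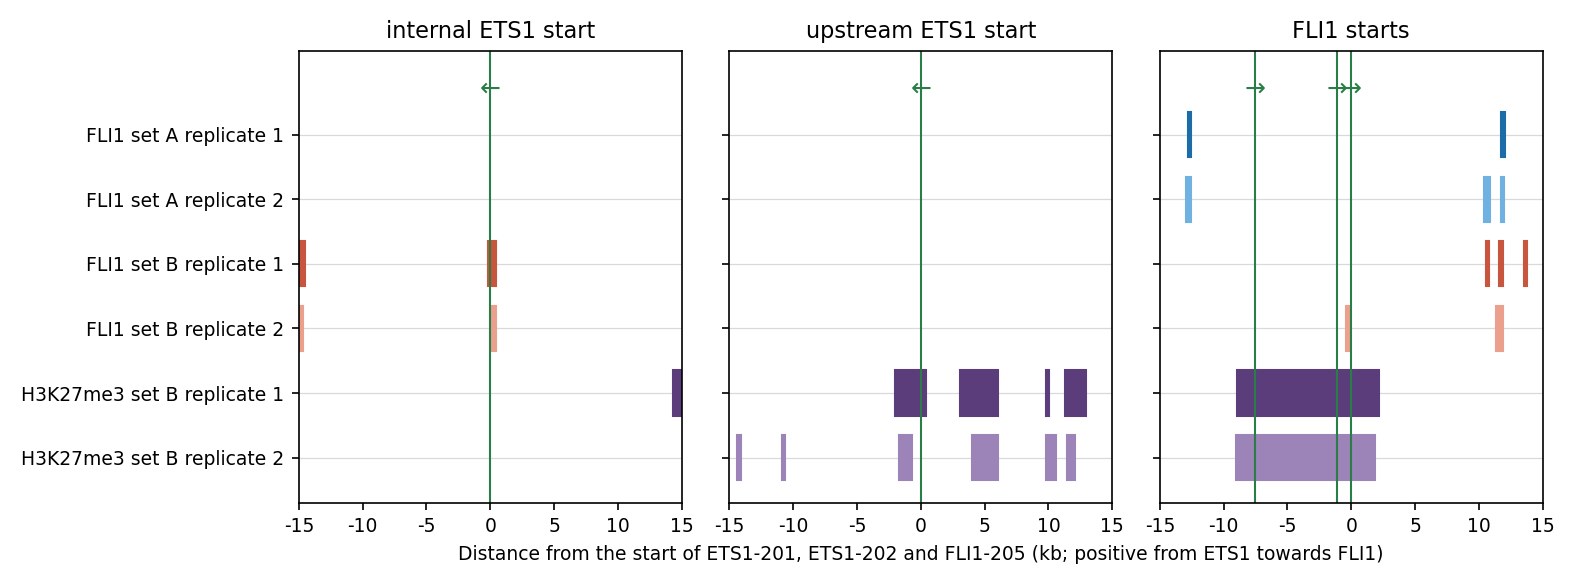
FLI1 and H3K27me3 regions by library within 15 kb of the internal ETS1 start, the upstream ETS1 start and the FLI1-205 start, in kb from each; green lines are starts and arrows give the direction of transcription. H3K27me3 fills the 3 FLI1 starts in both replicates, whereas the internal ETS1 start has FLI1 of the 2 set B libraries and no H3K27me3 within 10 kb.

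Of the interval's FLI1 regions, the set A lists held 6 and 5 and the set B lists 10 and 5, 26 in all. In that order, this is 1.32, 1.10, 2.2 and 1.10 per 100 kb, against 1.21, 1.39, 1.31 and 1.01 genome-wide. Merged, they made 14 regions, of which 7 were in 1 library, 5 in 2 and 2 in all 4. Across the series, 29.3% of merged regions were in all 4. By set, 3 of the 14 were in set A only, 7 in set B only and 4 in both. Across the series, 33.6% were in set A only and 21.5% in set B only. The mean number of regions was 7.5 in set B and 5.5 in set A, a difference of 2. An exact two-sided permutation test over the 4 libraries gave p = 1 (adjusted p of 1 over the 2 tests made), and 0.333 is the smallest p that this design allows. Without set B replicate 1 the difference was -0.5.

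**Figure D4:**
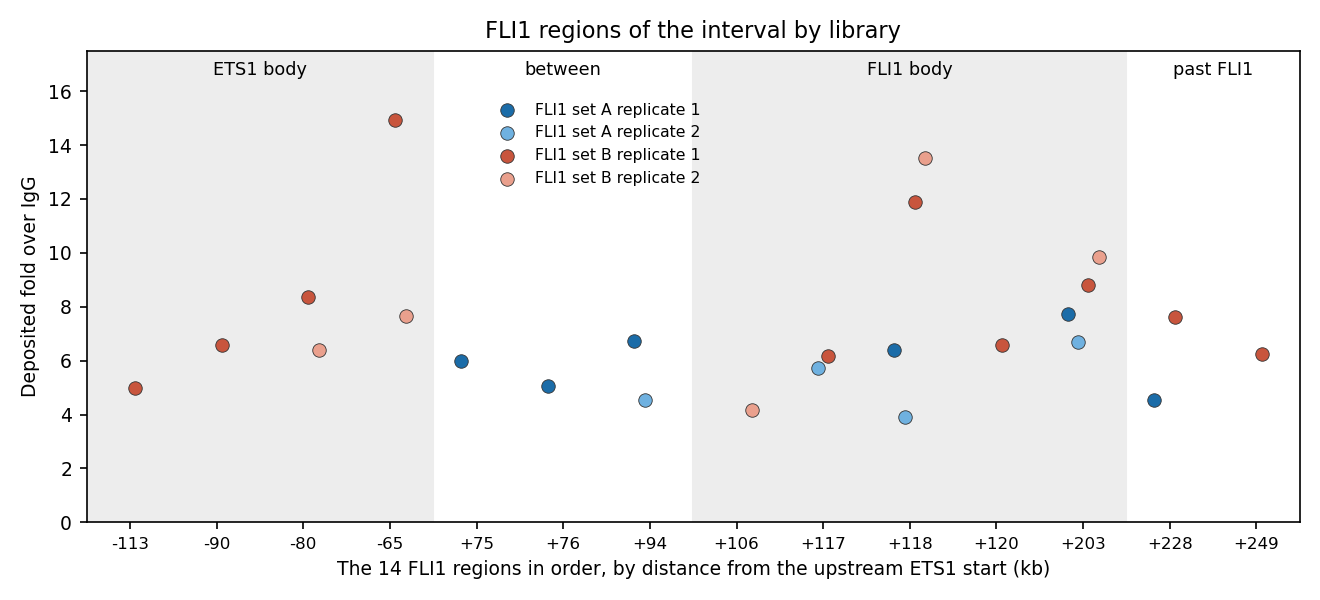
The authors' fold over IgG of FLI1 in each of the 14 merged regions, in order along the interval, 1 point per library in which the region was found (the most significant peak where a library had several); shading marks the stretch. ETS1 has red points (set B) only, the stretch between the genes blue points (set A) only, and the regions at +118 and +203 kb have all 4.

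All 4 FLI1 regions in the ETS1 body were found in set B only, and all 3 between the genes in set A only. With 10 kb either side, ETS1 had 0 regions in each set A list and 4 and 2 in those of set B, a pattern of both set B and neither set A library that 825 genes (4.13%) shared. FLI1, counted likewise, had 4 and 5 regions (set A) and 5 and 3 (set B), and 56.3% of genes had FLI1 in all 4 libraries. The 4.13% and 56.3% are over genes of all lengths, not only those as long as ETS1 and FLI1. The nearest set A summits to the internal ETS1 start were 141 kb and 159 kb away. Absence from a list means only that no region passed the authors' threshold there, and the lists carry no fragment counts for such places.

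The region at the internal ETS1 start was the strongest of the interval in set B replicate 1. There it spanned the start and MIR6090 (chr11:128522163-128522772), with a fold of 14.9 and a −log10 q of 28.2, at percentile 79.8 of its list by significance (the most significant region stands at 100). In set B replicate 2 it began just upstream of the ETS1-201 start (chr11:128522331-128522762), with a fold of 7.67 and a −log10 q of 13.6, at percentile 58.7. Fold and p were solved for the fragments at the summit, which were 33 and 34, over control levels of 1.14 and 3.18 on the same scale. The 2 replicates thus had nearly the same number of fragments, and the control level of replicate 2 was the higher. The summits lay 0.216 and 0.294 kb upstream of the ETS1-201 start, 78 bp apart, within the GC-rich sequence printed above.

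The other region found in both set B libraries lay further along intron 3. It spanned chr11:128507268-128507776 in replicate 1 (fold 8.37, 18 fragments) and chr11:128507277-128507675 in replicate 2 (fold 6.39, 17 fragments), with summits 158 bp apart. Replicate 1 alone had 2 weaker ones, in intron 3 (chr11:128497317-128497562, fold 6.58, 10 fragments) and in intron 8 (chr11:128474816-128475015, fold 4.99, 16 fragments). All 4 lay in the part of ETS1 that had no shared H3K27me3, between 17.3 kb and 65.1 kb from the nearest shared base.

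How often 2 starts of a gene differ in this way was counted after the values at ETS1 had been seen. Of 6930 genes with coding starts over 5 kb apart, 923 had shared H3K27me3 within 1 kb of such a start. In 103 of these (11.2%) another start, over 5 kb away and outside both H3K27me3 lists, had FLI1 of both set B libraries. ETS1 was among them and FLI1 was not. In 19 of the 103, such a start had no set A region, as at ETS1.

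Between the genes, FLI1 was found in set A only, inside the lncRNA gene ENSG00000245008. A region 3.59 kb from the FLI1 start H3K27me3 region was in both set A libraries, at chr11:128681300-128681527 in replicate 1 (fold 6.74, 16 fragments) and chr11:128681128-128681548 in replicate 2 (fold 4.53, 15 fragments). Its summits were 3 bp apart, and the sequence around them has no GGAA or TTCC. Replicate 1 alone had 2 more, at chr11:128662736-128663064 (fold 6.004, 14 fragments) and chr11:128663257-128663536 (fold 5.08, 16 fragments). All 3 lay in the 57.1 kb without shared H3K27me3.

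At FLI1, 2 regions were in all 4 libraries, and neither was at a start. The region in intron 1 had its set A replicate 1 summit 11.8 kb from the FLI1-205 start, and at its nearest came within 9.49 kb of the H3K27me3 region. Its set A folds were 6.40 and 3.91, its set B folds 11.9 and 13.52, and its summit held 15, 8, 19 and 26 fragments. Both set B values were above both set A values for fold and for fragments. The fold is a ratio to a control level, and that level was lower for both set B libraries (0.551, 0.586) than for the set A libraries (1.39, 1.30). The fragments were not adjusted for depth, and the median summit of the 4 whole lists held 17, 15, 17 and 21. Whether binding here differed between the sets was not tested. Set A replicate 2 was the weakest, at percentile 3.37 of its list by significance, and set B replicate 2 the strongest, at 75.2. Another region between it and the start, chr11:128704445-128704912 in set A replicate 2 and chr11:128704594-128704884 in set B replicate 1, had folds of 5.73 and 6.18. Beyond it, set B replicate 1 alone had chr11:128707608-128707807, with a fold of 6.58 and 10 fragments.

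The region in intron 5, chr11:128789735-128790784, had set A folds of 7.71 and 6.69 and set B folds of 8.82 and 9.85. Its summit held 19, 17, 15 and 27 fragments. The folds of set B were above those of set A, while the fragments of the sets overlapped. It lay 93.8 kb from the nearest shared H3K27me3. The summits stood 8 bp apart in set A and 89 bp apart in set B, but between 332 and 429 bp apart across the sets. Set A replicate 2 had a second, weaker peak (chr11:128790559-128790784, fold 3.20) with its summit at 128790586, against 128790589 in set B replicate 1, so that 1 set A library also had a peak at the set B position.

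Summits that lay closer within a set than across the sets were found at other regions too. Among the 16163 merged FLI1 regions found in all 4 libraries, the median of the larger within-set distance was 80 bp, and the median of the smallest distance across the sets was 29 bp. The smallest distance across the sets was above the larger within-set distance in 27.7%. As many as 1026 (6.35%) had summits at most 89 bp apart within each set and at least 332 bp apart across them, as in intron 5. The intron 1 region had distances of 50 bp and 14 bp within the sets and 100 to 164 bp across them.

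Only 1 FLI1 region of the interval lay inside H3K27me3. It was in set B replicate 2, at chr11:128693660-128693963, inside SENCR and across the first start of the FLI1-205 group. All 304 bp were in the shared mark. It was weak, with a fold of 4.17, a −log10 q of 3.30 and 13 fragments over a control level of 2.02, at percentile 3.22 of its list by significance. The other 3 libraries had no region there.

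Counted by library, 0%, 0%, 0% and 20% of FLI1 regions overlapped the shared mark, 5% ± 10 (SD, n = 4). That is 1 of 26 (3.85%) in a mark that took up 6.94% of the interval. Across the series, 507 of 143360 FLI1 regions (0.354%) overlapped shared H3K27me3, which covers 0.940% of the autosomes and X. Summits per 100 kb were 0, 0, 0 and 3.17 inside the mark and 1.42, 1.18, 2.36 and 0.946 outside it. The difference, inside minus outside, was -0.685 ± 2.01 (SD, n = 4), with p = 0.5 by an exact two-sided sign-flip permutation test and an adjusted p of 1 over the 2 tests made. With 4 libraries the smallest p is 0.125, so this test could not have passed 0.05. The H3K27me3 lists come from set B, so set A FLI1 was compared with a mark measured in the other set.

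The 13 FLI1 regions outside the mark lay between 3.59 kb and 140 kb from it, with a median over all 14 of 21.8 kb. Past the 3′ end of FLI1, 1 region was found in set A replicate 1 (chr11:128815233-128815732, fold 4.54) and set B replicate 1 (chr11:128815485-128815708, fold 7.61). Set B replicate 1 alone had a region in KCNJ1, which encodes a renal potassium channel (chr11:128836242-128836442, fold 6.24). In all, 2 of the 14 regions had a summit within 1 kb of a coding start, the internal start of ETS1 and the FLI1-205 group, and 11 had theirs over 5 kb from one.

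H3K27ac and H3K9me3 had 0 regions in the interval in each of their 2 libraries. With 10 kb either side, 54.8% of protein-coding genes had no H3K27ac region in either library and 65% no H3K9me3 region. Those genes are of all lengths, and the interval is 454.5 kb long, so the shares are not matched to it. Genome-wide, the H3K27ac lists held 0.351 and 0.597 regions per 100 kb and the H3K9me3 lists 1.26 and 0.748, against 0 in the interval. Whether 0 is unusual for a stretch of this length was not tested. The H3K27ac lists held 10219 and 17366 regions and covered 0.195% and 0.301% of the autosomes and X. The FLI1 regions of ETS1 and FLI1 in set A and set B therefore had no H3K27ac list region beside them, with acetylation measured in set A only.

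Tandem GGAA or TTCC runs of 4 or more units numbered 6 in the interval on hg38. The longest had 7 units and lay in ETS1 (chr11:128478457-128478484), and the other 5 had 4 units each. No FLI1 library had a region within 250 bp of any of them. Genome-wide, 16350 such runs had FLI1 within that distance in 17.6% and 18.8% of cases for the set A lists and in 16.02% and 13.7% for those of set B. These shares pool runs of 4 or more units of every length, and runs of 4 units alone were not counted. Of the 4-unit runs, 1, in the stretch between the genes at chr11:128612468-128612483, lay inside shared H3K27me3.

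Most FLI1 summits of the interval, as of the whole series, had a GGAA core nearby. Searched on both strands in 101 bases, GGAA was in 21 of the 26 windows of the interval, and in 69.7% of all FLI1 windows of the series. CAGGAA was in 5 of 26 against 13.2%, CCGGAA in 0 against 3.30%, and the tandem GGAAGGAA in 0 against 1.95%. The last 3 motifs each contain GGAA. The windows of the regions between the genes had no GGAA on either strand. Windows away from FLI1 summits were not searched, so the share that holds so short a core there is not given. Several windows overlap, since libraries share regions, so the 26 are not independent sites. The intron 1 windows show how a shift of the summit changes the count: that of set A replicate 1 has 1 TTCC, and that of set B replicate 2 has 3.

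The starts also differed in composition. Over 250 bases upstream and 50 downstream, the internal ETS1 start had 79.0% GC, 49 CpG and an observed to expected CpG ratio of 1.05. The upstream ETS1-202 start had 49.7% GC, 3 CpG and a ratio of 0.162. The FLI1-202, FLI1-204 and FLI1-205 starts had 62.0%, 66.7% and 52.0% GC with 13, 26 and 10 CpG.

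Among the 26 other ETS family genes, all found in the annotation, 2 had shared H3K27me3 within 1 kb of the start, a share close to the 9.37% of all genes. They were FEV, a regulator of serotonin neurons, whose body was covered in full, and ERG, the close paralogue of FLI1, with 1.84% of the body covered (5.37% and 2.501% in the replicates). ETV4 had 5.64% of its body covered and no mark at the start. The median over the family was 0%. FLI1 was within 1 kb of the start in all 4 libraries in 10 of the 26, against 33.8% of all genes, and in at least 1 library in 14. At the gene starts of ETS1 and FLI1 themselves, 0 of the 4 libraries had a region.

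The genes with coverage most like ETS1 over the 10 lists, among 4454 genes of similar length, were ABCC8, GDPD5, KCNC4, ACSF3 and ENSG00000266202. Likeness was the mean absolute difference, over the 10 libraries, of percentiles of coverage of the body with 10 kb either side. It was 1.31 points for ABCC8, a subunit of a potassium channel, and 2.39 to 4.82 for the others. These genes were chosen by coverage, so what follows describes the choice. Like ETS1, all 5 had FLI1 regions in both set B libraries and in neither set A library, and no H3K27ac or H3K9me3. Shared H3K27me3 covered 15.2% of the body of ABCC8 and 17.8% of KCNC4, above the 4.36% of ETS1, and 1.80% of GDPD5, 1.54% of ACSF3 and 0.867% of ENSG00000266202, below it. Nearest to FLI1 among 4543 genes were NBPF20, LDB3, FABP12, CDH22 and RAPGEF5, at 2.75 to 3.25 points. Of these, CDH22, a cadherin gene, had 21.0% of its body in the shared mark, RAPGEF5 had 0.888%, and NBPF20, LDB3 and FABP12 had 0%, against 7.39% for FLI1. With 10 kb either side, the genes at 0% still had H3K27me3 regions in both replicates: NBPF20 1 and 1, LDB3 1 and 1, FABP12 4 and 3. The FABP12 body was 4.16% and 1.28% covered in the replicates, without shared bases.

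As a check of the cells, genes known as EWSR1::FLI1 targets or markers were looked up with 10 kb either side. NR0B1, NKX2-2 and CCND1 had FLI1 regions in all 4 libraries. So did 56.3% of protein-coding genes counted likewise, so this check says little about the cells. CD99, the surface marker of Ewing sarcoma, had 4 and 6 in the set A lists and 0 in each of set B. It lies in the pseudoautosomal end of X, over all of which the set A lists held 17 and 21 FLI1 regions and the set B lists 0 each, so the zeros of set B are not particular to CD99. The lists of the 2 sets thus differ over that whole stretch, and the sources do not say why. Whether the lists also differ in this way where ETS1 or the stretch between the genes had regions of 1 set only was not tested. Depth can be given only at summits: over the peaks of each FLI1 list with a −log10 p under 40, the only ones solved, the median summit held 17, 15, 17 and 21 fragments, and those of the interval held 8 to 34. A region of few fragments in 1 list and missing from another is not shown to differ between those libraries.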

How the data were processed

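CUT&RUN was done on TC-32 cells with a commercial kit and a yeast spike-in, per the labels' protocols. The submitters' processing notes name cutadapt 4.4, Bowtie2, Picard 2.17.11 and MACS2 2.1.1 and the build hg38, without their roles. Names in the deposited files show that the authors ran each antibody library separately, with the matching IgG (same set, same number) as control and duplicates removed. Of each peak they deposited a fold over IgG (a ratio), a −log10 p-value, a −log10 q-value (at least 2.00 in all 10 lists) and, for FLI1 and H3K27ac, a summit.

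The members and gene lists were chosen with earlier results of these data known. Overlapping peaks of a list were merged, on the autosomes and X. H3K27me3 was taken as bases in both replicates. A FLI1 region overlapped it with at least 1 shared base, and gene starts came from GENCODE release 44. Fragments at FLI1 summits were solved from fold and p, for peaks with a −log10 p-value under 40, as a Poisson p with a pseudocount of 1 and 1 scale per library. The files do not state that formula. At least 99.997% of peaks in each list had a solution. No read totals were used, so depth elsewhere is unknown.

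The 2 tests were exact permutations over the 4 FLI1 libraries, with Benjamini-Hochberg adjustment, and all else is description. Genes named were ETS1, FLI1, those overlapping the interval, the other ETS family genes with H3K27me3 at the start, the 5 genes most alike to each member, and 4 Ewing sarcoma targets or markers (NR0B1, NKX2-2, CCND1 and CD99). ETV4, the count over alternative starts and the series-wide summit distances were added after their values were seen. Alternatives covered the use of either replicate, stricter q-values, filled gaps, the flank, the overlap rule, the start window, the replicate block and leaving out each FLI1 and H3K27me3 library. A −log10 q of at least 3 was added after the data were seen. Interval arithmetic and the fragment solver were tested on simulated data. For the solver, these were drawn from the formula it assumes, so that test does not show that the deposited files follow it. Python 3.11.15 with numpy 2.4.6, pandas 2.3.3, scipy 1.17.1 and matplotlib 3.10.9 was used. Reads, spike-in counts and IgG libraries were not analysed here, and some sequences are not reported here.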

Additional observations from a re-analysis of the deposited data

Results flagged for a closer look

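The percentage of FLI1 regions of the interval that overlapped shared H3K27me3 was 20 in set B replicate 2 and 0 in the other 3 libraries. The gap between that library and the rest was the whole range of the 4 values, which is what flagged it. Such a gap arises whenever 1 of the 4 lists alone has an overlapping region, so it says no more than that count. It rests on 1 region of the 5 in that list, at the FLI1 start, with 13 fragments at its summit.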

How the results depend on the processing

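The extent of H3K27me3 depended on the list used. Taking bases of either replicate, the covered share was 13.0% of the interval, 12.7% of ETS1, 30.2% of the stretch between the genes and 8.002% of FLI1. Leaving out 1 H3K27me3 replicate gave ranges of 8.18 to 11.8%, 5.996 to 11.1%, 20.3 to 26.6% and 7.39 to 8.002%. Replicate 1 alone gave over 1.5 times the shared value for the interval, ETS1 and the stretch between the genes. With a −log10 q of at least 5, all 4 shares were 0% and 761 gene starts, in place of 1870, had the mark. With at least 3, an alternative added after the data were seen, they were 6.71%, 4.36%, 15.7% and 7.39%. Filling gaps of up to 3 kb gave 22.1% between the genes, and a flank of 200 kb gave 4.26% of the interval.

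The share of FLI1 regions in H3K27me3 ranged from 0 to 6.67% and the density difference from -1.65 to -0.125 when each FLI1 library was left out. The share was also 0% with a −log10 q of at least 5 for FLI1, which removes the set B replicate 2 region, the only one inside the mark. The density difference was then -1.30 (exact sign-flip p = 0.125, the smallest the design allows), and it was below 0 under every alternative run. A list with no summit inside the mark is below 0 by construction. With a share of 0% this holds for every list, which alone gives that p. The alternatives also reuse largely the same summits, so the constant sign adds little. The difference in FLI1 regions between the sets ranged from -0.5 (reversed, without set B replicate 1) to 4.5. Per 10000 regions of the list it was 0.692 (exact permutation p = 0.333). With the replicate block, pairing libraries by number, it was 2, with p = 1 by an exact sign-flip test over the 2 pairs. The labels do not say what a shared number means. Precision is limited by the lists' threshold and by summits of 8 to 34 fragments.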
